A study of Homo sapiens with 4 samples.

Results

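Genes whose products set up or mark the naive state of human pluripotent cells were followed through a map of OGA on chromatin. The 10 genes are TFCP2L1, TFAP2C, KLF4, KLF5, KLF17, PRDM14, ARGFX, ZFP42, UTF1 and SUSD2. The deposited lists assign regions to 6757 genes, and 9 of the 10 are among these, while KLF17 is not. A member's regions are those that the lists assign to it by gene name, wherever they lie. This gave 3 of 1334 regions in the knockdown list and 16 of 8977 in the control list. OGA is the enzyme that takes O-linked N-acetylglucosamine off proteins. Its occupancy was measured with CUT&Tag, in which an antibody brings a transposase to the protein so that nearby DNA is tagged and sequenced. There were 2 libraries from H9 cells with OGA knockdown (labelled shOGA) and 2 from H9 cells of genotype WT (labelled ctrl). H9 is an established line of human embryonic stem cells. All 4 libraries came from naive cells grown on mouse embryonic fibroblast feeders in N2B27 medium with PD0325901, XAV939, Gö 6983 and human LIF, the combination known as PXGL. The labels give no treatment, do not say whether the WT cells carried a control hairpin, and do not say that replicates came from separate cultures.

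Each group has 1 list of regions, in which every region joins called peaks of replicate 1 and replicate 2. The lists hold positions and no read count, signal or score, so sequencing depth is unknown, no member has a value per library to test, and the counts below compare lists rather than amounts of OGA. The highest peak number was 14203 and 13946 in the knockdown libraries and 24287 and 28210 in the control libraries. The OGA gene itself had 0 regions in each list, and the lists do not show how far OGA was depleted.

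The naive state resembles the epiblast before implantation, and it is held by a network of transcription factors that keep one another active. TFCP2L1, TFAP2C and the Krüppel-like factors bind enhancers of naive genes, and PRDM14 represses signals that favour differentiation. ZFP42, UTF1 and SUSD2 are used mainly as markers. O-GlcNAc, the sugar that OGA removes, is carried by many transcription factors and chromatin proteins.

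None of the listed OGA regions at the naive-state genes lay within 1 kb of a start site. In the knockdown list 3 of the 10 genes had a region, KLF4, ARGFX and SUSD2, against 3.97% of all protein-coding genes. In the control list 8 of 10 had one, all but KLF4 and KLF17, against 21.7% of protein-coding genes. ARGFX and SUSD2 were in both lists, KLF4 was in the knockdown list alone and KLF17 was in neither. Of the 10 genes, 0 had a knockdown region and 0 a control region within 1 kb of a start site, where 1.66% and 13.1% of protein-coding genes had one. Within 3 kb, the limit of the authors' promoter class, 0 genes had a knockdown region (2.03% of protein-coding genes), and 2 had a control region, PRDM14 and UTF1 (14.8%). With only 10 genes, these counts within 1 and 3 kb lie near the shares of all protein-coding genes. Among all protein-coding genes with any control region, 60.3% had one within 1 kb of a start, compared with 0 of the 8 naive-state genes, and 68.6% had one within 3 kb, compared with 2 of the 8. Of the 8, 4 genes had at least 2 control regions (25.9% of protein-coding genes with a control region), 3 had at least 3 (8.77%) and 1 had at least 4 (3.66%).

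**Figure D1:**
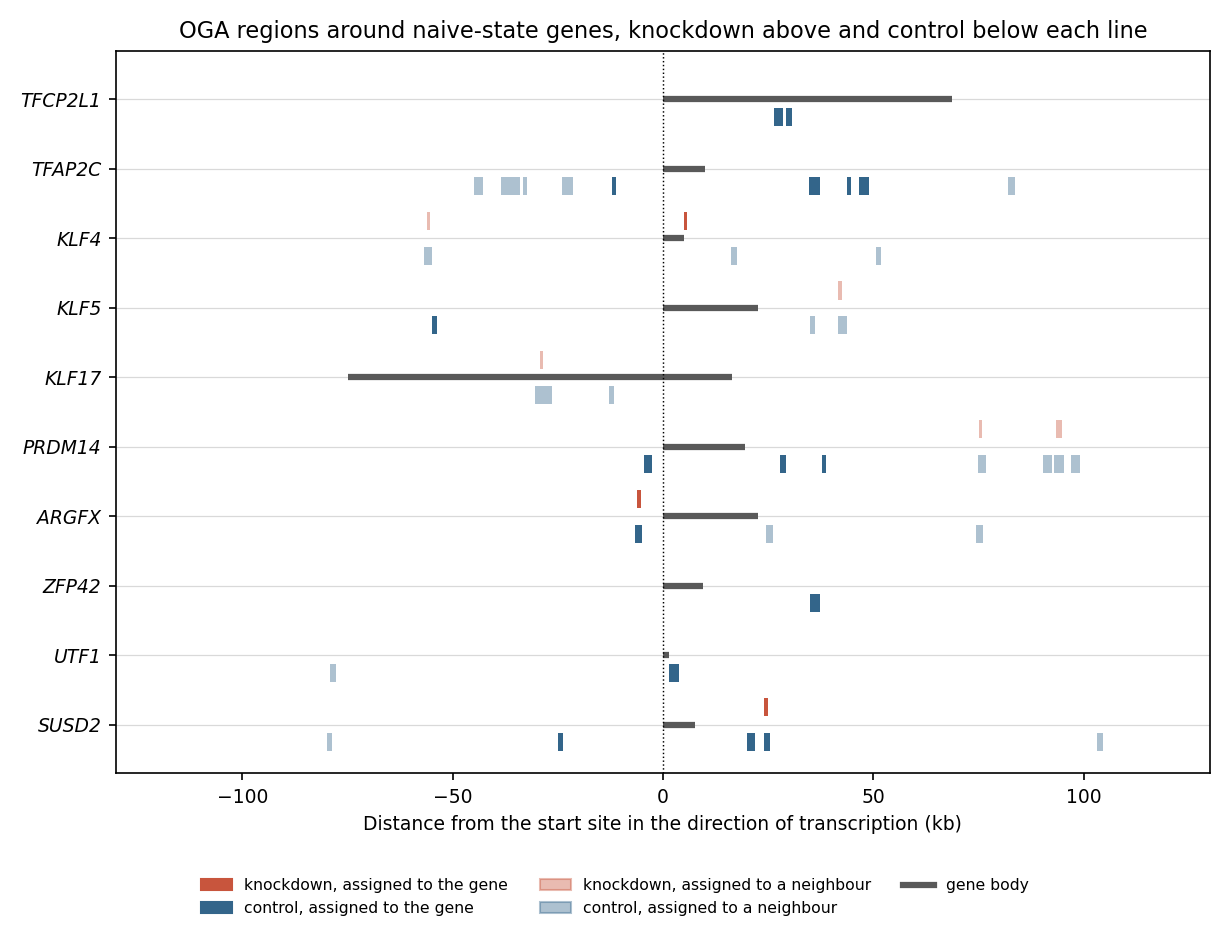
Listed OGA regions around each gene, drawn to scale. The horizontal axis is the distance in kb from the start site in the direction of transcription, grey bars are gene bodies, knockdown regions lie above each line and control regions below it, and pale boxes are regions that the lists assign to a neighbouring gene. No box crosses the start site at 0, and the 3 strong-coloured knockdown boxes are at KLF4, ARGFX and SUSD2, while KLF17 is drawn from a start inside its longer gene body, with 2 control regions of neighbours beyond the left edge.

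TFCP2L1, a CP2-family factor that in mouse cells acts downstream of LIF, had 0 knockdown regions and 2 control regions. Both lay in its second intron on chromosome 2 (GRCh38), at 121254617 to 121255942 (1326 bp) and at 121256658 to 121258764 (2107 bp). Only 715 bp separated them, and neither control replicate had a further peak in between. The lists give their distance as 13973 and 16014 bp upstream of a shorter transcript. From the first start of the gene in RefSeq they were 29.3 and 26.4 kb downstream. The nearest knockdown region lay 296359 bp from the wider of them.

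TFAP2C, the AP-2 gamma factor, carried more control regions than any other of the 10 genes, and 0 knockdown regions. One control region lay 11046 bp upstream of the start on chromosome 20 (56617281 to 56618260, 980 bp), the narrowest of the 16. The other 3 formed a group downstream of the gene that spanned 14372 bp. They ran from 56664020 to 56666716 (2697 bp), from 56673010 to 56674138 (1129 bp) and from 56675878 to 56678391 (2514 bp). Their distances to the start were 34714, 43704 and 46572 bp. Control replicates had no further peak in the spaces of 6293 and 1739 bp inside this group. The 2697 bp region was the widest of the 16 and joined 2 peaks of replicate 1 with 1 of replicate 2, whereas the other 18 of 19 member regions joined 1 peak of each replicate. Another 4 control regions within 50 kb of TFAP2C were assigned to LINC01716 and RPS4XP3. The widest of these, at 56590922 to 56595317, measured 4396 bp. TFAP2C thus had 8 control regions in its body or within 50 kb, a number reached by 1.34% of protein-coding genes. The nearest knockdown region to any of its 4 own regions was 2697045 bp away.

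The 3 Krüppel-like factor genes, KLF4, KLF5 and KLF17, had the same counts in the gene body or within 50 kb of it, 1 knockdown and 2 control regions each, and had 1 region or 0 in each list under their own names. KLF4, which encodes a zinc finger factor used in reprogramming, had 1 knockdown region and 0 control regions. The knockdown region lay 163 bp beyond the 3′ end of the gene on chromosome 9, at 107484011 to 107484689 (679 bp), and 5080 bp from the start. The nearest control region was 10316 bp away and was assigned to RNU6-492P. KLF4 lay in a space of 71.0 kb between listed control regions. Inside this space control replicate 1 had 1 peak and control replicate 2 had 2 peaks that entered no listed region. Whether these lay at the knockdown region cannot be read from the lists. A further knockdown region, upstream of KLF4 at 107545178 to 107545842 (665 bp), was assigned to LOC105376205 and lay inside a control region of 1812 bp.

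KLF5, a relative of KLF4 that is expressed in the early embryo, had 0 knockdown regions and 1 control region. The control region was 53633 bp upstream on chromosome 13, at 73000152 to 73001343 (1192 bp), in the last intron of the neighbouring gene PIBF1. It was the most distant of the 16 control regions. Downstream of KLF5, a knockdown region of 800 bp at 73096676 to 73097475 lay inside a control region of 2215 bp, and both were assigned to the pseudogene FABP5P1. By the lists' gene names, therefore, KLF5 had no region in the knockdown list although 1 was present 41700 bp from its first start.

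KLF17, a Krüppel-like factor that marks naive cells in human, was the gene without any assigned region. The authors' annotation nevertheless placed 1 region of each list inside intron 4 of 6 of a KLF17 transcript, assigning it by start distance to the keratin pseudogene KRT8P47. On chromosome 1 the knockdown region ran from 44089498 to 44090287 (790 bp) and the control region from 44088475 to 44092371 (3897 bp). The knockdown region lay entirely within the control region. At the 98.0th percentile of width in its list, this control region was wider than all 16 that carry a member's name. It ended 26450 bp upstream of the RefSeq start used here. A second control region of 1301 bp, also assigned to KRT8P47, lay 11562 bp upstream of that start. Both control regions lay inside the RefSeq gene body of KLF17, which is 91214 bp long and begins farther upstream.

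PRDM14, a PR-domain repressor also needed for germ cells, had 0 knockdown regions and 3 control regions on chromosome 8. The first was 2691 bp upstream of the start (70073943 to 70075645, 1703 bp). The others lay beyond the 3′ end, at 70041999 to 70043513 (1515 bp) and at 70032447 to 70033514 (1068 bp). Knockdown regions began farther out. The nearest was 36339 bp from the last of these control regions, was assigned to SUMO2P20 and overlapped a control region with that assignment. The space between knockdown regions that holds PRDM14 was 296 kb long and held 2 unlisted peaks of knockdown replicate 1 and 1 of replicate 2. The 3 control regions are 8484 and 30429 bp apart. If no knockdown peak bridges those spaces, at most 2 of them can hold a peak of knockdown replicate 1 and at most 1 a peak of replicate 2.

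ARGFX, a PRD-like homeobox gene of the early human embryo, had 1 region in each list, upstream of its start on chromosome 3. The knockdown region ran from 121561677 to 121562654 (978 bp) and the control region from 121561311 to 121562882 (1572 bp). The start of ARGFX was 5295 bp from the knockdown region and 5067 bp from the control region. All 978 bp of the knockdown region lay within the control region, which they covered to 62.2%. Between the control region and the next one, at the start of FBXO40, control replicate 1 had 1 unlisted peak and control replicate 2 had 0. The ARGFX start, which lies in that space, therefore held no called peak in control replicate 2.

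ZFP42, also called REX1, encodes a zinc finger protein related to YY1. It had 0 knockdown regions and 1 control region, 35056 bp downstream of its start on chromosome 4 (188030827 to 188033049, 2223 bp). No other control region lay within 100 kb of the gene. The nearest knockdown region was 74993 bp from the control region and was assigned to TRIML2.

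UTF1, a chromatin-associated coactivator of undifferentiated cells, had 0 knockdown regions and 1 control region, on chromosome 10 at 133231569 to 133234165 (2597 bp). The lists class it as a promoter region because it begins 1352 bp from the start. UTF1 is 1342 bp long, however, and the region begins 11 bp past the 3′ end of the gene. Control replicate 1 had 0 unlisted peaks between this region and the preceding listed region 77820 bp from the start, and control replicate 2 had 4. The UTF1 start thus held no called peak in control replicate 1. In the knockdown list the closest region was 8.08 Mb away at CTBP2, and at most 12 and 18 unlisted peaks of knockdown replicates 1 and 2 fell between it and the end of the chromosome.

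SUSD2, a surface protein used to sort naive cells, had 1 knockdown region and 3 control regions on chromosome 22. The knockdown region was at 24205570 to 24206418 (849 bp). It lay inside the control region at 24205409 to 24206857 (1449 bp), of which it covered 58.6%, 23922 bp downstream of the start. Another control region lay 2134 bp from that one, at 24201528 to 24203274 (1747 bp). One more was upstream, at 24156550 to 24157805 (1256 bp), within an intron of CABIN1. In the knockdown list, the space that holds the 1747 bp and 1256 bp control regions was 385 kb long and had 1 unlisted peak of replicate 1 and 2 of replicate 2.

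Over the 10 genes, regions of both lists were common in the neighbourhood when the assigned gene name was ignored. In the gene body or within 50 kb of it, 5 of 10 genes had a knockdown region, against 12.2% of protein-coding genes, and 10 of 10 had a control region, against 49.2%. Within 100 kb, 6 of 10 had a knockdown region (18.4% of protein-coding genes) and 10 of 10 a control region (59.5%). KLF5, KLF17 and PRDM14 have knockdown regions in this window only under other gene names. TFCP2L1, TFAP2C, ZFP42 and UTF1 had 0. Longer genes give longer windows. The members' median length was 14790 bp, against 24130 bp for protein-coding genes, but KLF17 (91214 bp) and TFCP2L1 (68616 bp) were longer. Whether gene length bears on the shares within 50 and 100 kb was not tested. These shares were not compared by a test, since the genes were chosen with earlier results of the data known.

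**Figure D2:**
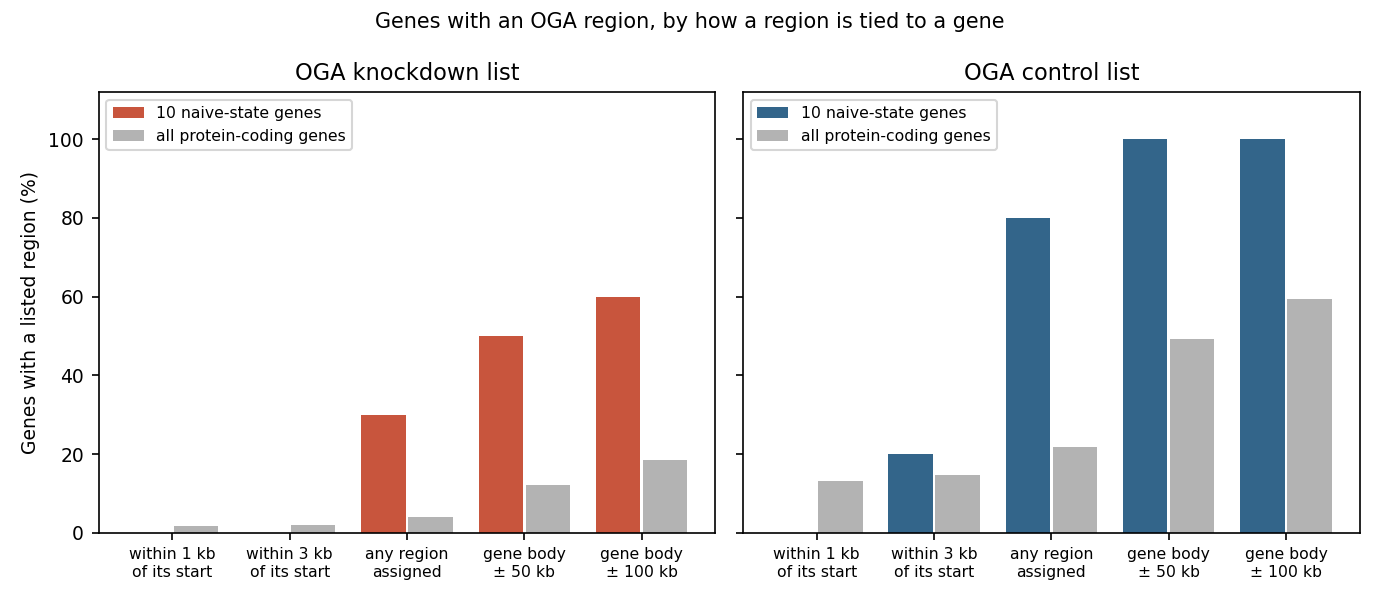
Percentage of the 10 naive-state genes (coloured bars) and of all protein-coding genes (grey bars) with a listed OGA region, for the knockdown list (left) and the control list (right), by how a region is tied to a gene. Coloured bars are at 0 within 1 kb of a start in both lists, and reach 50% (knockdown) and 100% (control) within 50 kb.

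The share of member regions common to both lists lay near that of all regions. Of the 3 knockdown regions at these genes 2 shared at least 1 bp with a control region (66.7%, 95% interval by Wilson's method 20.8 to 93.9), against 69.0% of all knockdown regions. Of the 16 control regions 2 were overlapped by a knockdown region (12.5%, 3.5 to 36.0), against 10.0% of all control regions and 9.95% of those outside promoters. By gene, 2 of the 8 members with a control region also had a knockdown region, against 15.1% of protein-coding genes with a control region. Intervals cover counting error only, and regions of 1 gene share a locus. Of the 8 knockdown regions within 100 kb of a member, 7 lay over a control region (87.5%), and of the 39 control regions in the same windows 7 were overlapped (17.9%).

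The median distance to a start was larger for the members' control regions than over their list, and member widths lay on both sides of their list's median. The knockdown regions had distances to a start of 5080 bp (KLF4), 5295 bp (ARGFX) and 24083 bp (SUSD2), with a list median of 5332.5 bp. The 16 control regions lay 1352 to 53633 bp from a start, with a median of 23802 bp, against 3789 bp over the control list. Of these 16, 0 spanned a start site, whereas 28.5% of all control regions did. The regions at UTF1 (1352 bp) and upstream of PRDM14 (2691 bp) were nearer than the list median. Distal intergenic positions held 10 of the 16 (62.5%, against 20.2% of the control list), introns 4 (25%, against 22.6%) and promoters 2 (12.5%, against 46.9%). These shares were not tested.

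**Figure D3:**
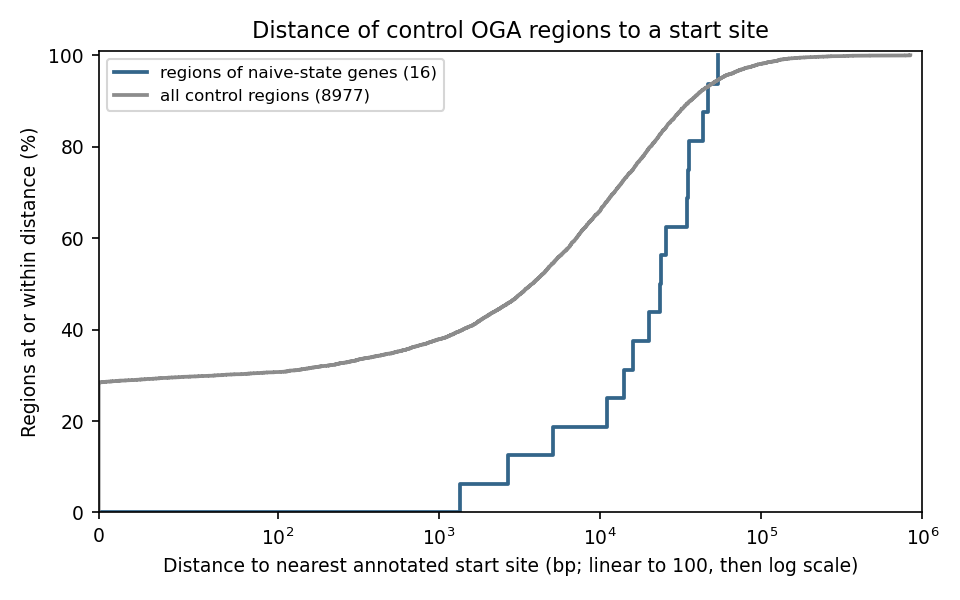
Cumulative percentage of control OGA regions (vertical axis) at or within a given distance in bp from the nearest annotated start site (horizontal axis, linear to 100 bp and logarithmic beyond). The curve of the 16 regions at naive-state genes begins at 1352 bp, while that of all 8977 control regions begins at 28.5% at a distance of 0.

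The knockdown regions measured 679, 978 and 849 bp at KLF4, ARGFX and SUSD2, around the knockdown list's median of 727 bp. The 16 control regions measured 980 to 2697 bp with a median of 1543.5 bp, against 1577 bp over the list, and 7 of them were wider than that. Wide and narrow regions occurred at the same gene, as at TFAP2C (980 and 2697 bp). At ARGFX and SUSD2 the knockdown region lay inside the control region, so its smaller width there is no separate result.

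**Figure D4:**
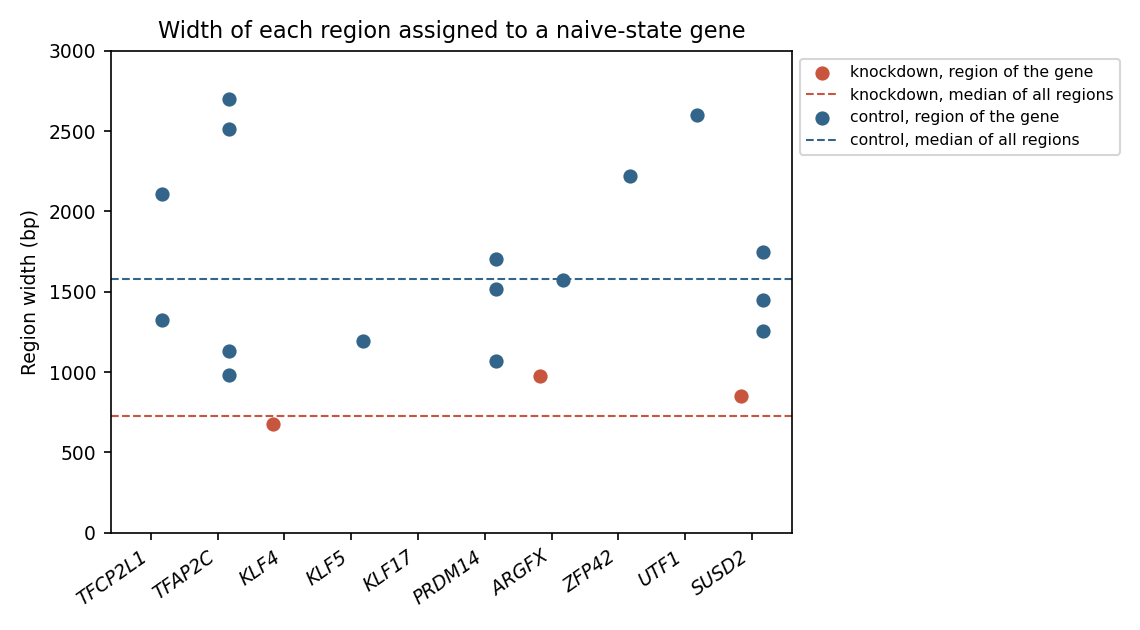
Width in bp (vertical axis) of each region assigned to a naive-state gene (horizontal axis), with 1 point per region and dashed lines at the median of all regions of each list (727 bp knockdown, 1577 bp control). The points scatter on both sides of their list's line, and the 3 knockdown points lie below all 16 control points, the highest of them at ARGFX (978 bp) just under the narrowest control point at TFAP2C (980 bp).

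Sequences in front of the start sites are shown because these windows carried no listed region although all these genes had a control region within 50 kb. RefSeq promoter sequences were found for 6 of the 10 genes, with 7 starts, since KLF5 has 2. Of the 7 windows of 250 bases, 0 were touched by a knockdown region and 0 by a control region. The same share over all promoter windows was not computed. Within 1 kb of a start, a wider measure, 1.66% of protein-coding genes had a knockdown region and 13.1% a control region. With so few windows, 0 of 7 therefore does not set these genes apart. The sequences read 5′ to 3′ toward the start (GRCh38.p14), and capitals mark the core of Krüppel-like factor motifs, CACCC or GGGTG on the other strand. They belong to UTF1 (chr10:133229967-133230216, plus strand), KLF4 (chr9:107489770-107490019, minus strand), TFCP2L1 (chr2:121285203-121285452, minus strand) and KLF17 (chr1:44118571-44118820, plus strand).
UTF1: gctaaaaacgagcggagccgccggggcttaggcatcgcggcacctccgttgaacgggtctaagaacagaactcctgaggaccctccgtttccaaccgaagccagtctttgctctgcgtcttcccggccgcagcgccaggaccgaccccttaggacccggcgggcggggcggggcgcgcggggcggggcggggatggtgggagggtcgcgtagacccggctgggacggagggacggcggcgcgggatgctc
KLF4: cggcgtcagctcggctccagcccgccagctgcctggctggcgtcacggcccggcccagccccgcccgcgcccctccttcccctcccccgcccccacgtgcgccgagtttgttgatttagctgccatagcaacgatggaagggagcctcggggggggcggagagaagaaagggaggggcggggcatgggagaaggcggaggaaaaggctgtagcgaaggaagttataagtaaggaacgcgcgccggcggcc
TFCP2L1: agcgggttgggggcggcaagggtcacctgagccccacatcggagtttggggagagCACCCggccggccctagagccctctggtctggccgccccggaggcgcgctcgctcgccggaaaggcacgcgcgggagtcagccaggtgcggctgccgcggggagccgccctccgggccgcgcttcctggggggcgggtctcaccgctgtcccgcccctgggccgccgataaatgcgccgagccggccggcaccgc
KLF17: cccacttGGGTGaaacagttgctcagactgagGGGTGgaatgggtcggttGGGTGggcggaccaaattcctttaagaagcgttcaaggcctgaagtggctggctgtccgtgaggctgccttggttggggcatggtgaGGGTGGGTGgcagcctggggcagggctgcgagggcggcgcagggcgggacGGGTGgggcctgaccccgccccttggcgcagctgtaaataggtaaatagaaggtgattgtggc
KLF17 held 6 such cores, among them 2 overlapping by 1 base, TFCP2L1 held 1, and UTF1 and KLF4 held 0. Of the other windows ZFP42 had 4, the first start of KLF5 had 1 and its second start had 2. A core occurred in 5 of the 7 windows and in 54.7% of 35114 RefSeq promoter windows of that length. The AP-2 motif GCCNNNGGC, which reads the same on both strands, occurred in 3 of the 7, at KLF4, KLF17 and ZFP42, and in 19.8% of all. UTF1 and TFCP2L1 had 32 CpG dinucleotides each, KLF4 had 25 and KLF17 had 11, with a median of 11 over all windows. The starts of KLF5 differed, the first with 40.8% and the second with 70.8% G and C, against a median of 58.0%. A match is a run of letters and no evidence of binding.

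A few relatives of the naive-state factors had OGA regions. Of 15 other Krüppel-like factor genes 0 had a knockdown region and 2 a control region, KLF11 (12400 bp from its start) and KLF16 (1610 bp). Of 4 other AP-2 genes 0 had a knockdown region and 1 a control region, TFAP2D. Of 5 grainyhead and CP2 genes 0 had a knockdown region and 1 a control region, UBP1, 46 bp from its start. Of 15 other PRDM genes, PRDM1 was the 1 gene with regions, 2 in the knockdown list and 2 in the control list, and 1 of its control regions spanned a start. Of the relatives of ZFP42, YY1 and YY2, 0 had a knockdown region and YY1 had 1 control region of 2556 bp. Of 10 PRD-like homeobox genes 0 had a knockdown region, and DPRX had 3 control regions of up to 3353 bp. Set against 3.97% and 21.7% of protein-coding genes, these numbers are too small to rank the families.

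Some other genes of the naive state had regions at their starts, and no difference from the 10 genes was tested. Of 28 further naive factors and markers 5 had a knockdown region, against 3.97% of protein-coding genes. These were DPPA2, DPPA4, DPPA5, DNMT3L and NLRP7, and all 5 also had a control region. In control 13 of 28 had a region, against 21.7% of protein-coding genes, with the widest outside those 5 at GDF3 (4819 bp), FGF4 (2681 bp), STAT3 (2564 bp) and DPPA3 (2511 bp). For 2 of the 5 in the knockdown list a region lay within 1 kb of a start, against 41.8% of protein-coding genes with a knockdown region. The same held for 9 of the 13 in the control list, against 60.3% of protein-coding genes with a control region. Both numbers are near those shares. Of 16 genes of the primed state, the later form of pluripotency, 2 had a knockdown region, against 3.97% of protein-coding genes. They were TCF7L1, which had no control region, and the methyltransferase gene DNMT3B, which did. In control 5 of the 16 had one, against 21.7%, among them CD24 (widest region 3549 bp), SALL2 (2507 bp) and DNMT3A (1565 bp).

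Peaks that entered no list limit what the knockdown list says of the 10 genes. Listed knockdown regions named 1354 peaks of replicate 1 and 1356 of replicate 2, where peak numbers reached 14203 and 13946. Listed control regions named 9343 and 9156, where peak numbers reached 24287 and 28210. The lists thus differ in the share of replicate peaks that entered them as well as in the number of peaks. Between neighbouring listed regions the median space was 569 kb in knockdown and 52.0 kb in control, with a median of 4 unlisted peaks per replicate in knockdown and 1 in control. Over all knockdown spaces there were 4.55 unlisted peaks of replicate 1 and 4.45 of replicate 2 per Mb. The counts below are to be read beside the lengths of their spaces. The start of TFCP2L1 lay in a knockdown space of 10.7 Mb with 36 and 33 unlisted peaks of replicates 1 and 2. That of TFAP2C lay in 7.52 Mb with 27 and 28, and that of ZFP42 in 4.85 Mb with 19 and 12. KLF5, in a space of 23013296 bp, had 77 and 62. For these genes a knockdown peak in 1 replicate, or in each at places that do not meet, cannot be told from none. KLF4 lay in the shortest knockdown space, 60.5 kb with 1 and 1 unlisted peaks.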

How the data were processed

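The authors deposited 1 annotated region list per group, with position, width in bp, annotation class, signed distance to a start site in bp and the numbered replicate peaks behind each region, per the file headers. Per the submitters' processing notes the build was GRCh38.p13, and the tools, given without roles, were SEACR 1.3, Bowtie2 2.3.4.3, edgeR, DESeq2 and ChIPseeker 1.12.1. The peak threshold and any control library are not given in the sources used here. One repeated control line was used once. Members were selected by gene name. Regions sharing 1 bp or more counted as overlapping, and background genes were matched by gene ID to 20052 protein-coding genes of RefSeq GRCh38.p14 (20033 on primary chromosomes for windows). For 77.3% of 4494 genes a deposited transcript end equalled the RefSeq gene end. The promoter windows are those of RefSeq GRCh38.p14. Peak numbers rose along every chromosome with 0 exceptions, so a skipped number between neighbouring regions is a replicate peak in no listed region. All 10 members are named, and of other lists the genes with a knockdown region and up to 4 others with the widest control region. The members and gene lists were chosen with earlier results of these data known. The motif of TFCP2L1 and a gene that this rule names are not reported here. Overlap and peak-number steps were checked on simulated lists, and 300 of 300 planted overlaps were recovered. Python 3.11.15, pandas 2.3.3, numpy 2.4.6, scipy 1.17.1 and matplotlib 3.10.9 were used.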

Additional observations from a re-analysis of the deposited data

How the results depend on the processing

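Of 66 values from 8 counts under 9 alternatives, 45 stayed within 1.5 times the reported count and 21 did not. Part of the 45 could not move. Overlap rules act only on the overlap counts and the 1 kb limit only on the promoter counts. All members lie on primary chromosomes, so that alternative could change nothing. The tally is therefore no measure of robustness. Keeping regions no narrower than the control median left 0 knockdown and 7 control regions at the members. With this cut 0 members had a knockdown region, and 0 regions of either list overlapped the other. The cut of 1577 bp lies above the upper quartile of all knockdown widths, 929.5 bp. Most knockdown regions of any gene fail it, so these zeros are no result about the members. Cutting the control list to its widest regions, equal in number to the knockdown list, left 3 control regions at 2 members. Of these, 1 was a promoter region, and there were 0 overlaps in either direction. The share of all regions that overlap under either cut was not computed. Without a cut, 69.0% of all knockdown and 10.0% of all control regions overlapped the other list. With so few regions left, 0 overlaps does not set the members apart. With promoters limited to 1 kb, 0 members had a control promoter region. With any region in the gene body or within 50 kb, 5 members had a knockdown region, and the counts were 5 knockdown and 26 control regions, 4 and 4 of them overlapped. Within 100 kb, an alternative chosen after seeing the data, 6 members had one, with 8 knockdown and 39 control regions, 7 and 7 overlapped. The alternatives admit different numbers and widths of regions, and no cause of these changes was tested. Overlap by 50% of the shorter of the regions, region centres no more than 500 bp apart, primary chromosomes and counting regions in an annotated transcript of a member, also added later, stayed within 1.5 times. No paired analysis was possible because each list merges both replicates, and for the same reason no replicate could be left out.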
